A study of Mus musculus with 14 samples.

Results

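The CCR4-NOT complex carries the 4 catalytic deadenylase subunits described here, encoded by Cnot7, Cnot8, Cnot6 and Cnot6l, which make up 4 of the 19938 genes measured in this series. Each gene was represented by a probe set annotated with exactly 1 symbol, and where a gene had several such probe sets the one with the highest mean was taken. Only Cnot8 had 1 further single-symbol probe set. RNA came from 14 samples of 4T1, a mouse mammary tumor cell line grown in serum-containing medium, and was hybridized to single-color Affymetrix arrays. The groups were CNOT7 over-expression (n = 3) with its vector control (n = 3), and the Cnot7 hairpins sh74 (n = 2) and sh75 (n = 3) with shScramble (n = 3). All 5 groups were lentivirally transduced and drug selected, over-expression constructs with blasticidin and hairpins with puromycin. The over-expressed cDNA was human FLAG-tagged CNOT7 driven by a murine Pol2 promoter, and its control vector was built on a different lentiviral backbone that carried a stuffer. Mouse probes need not detect a human cDNA, so the Cnot7 values of the over-expressing cells describe the endogenous transcript and an unknown part of the construct. The labels do not say whether samples of a group were separate cultures, and p-values therefore cover no more than the spread among the samples at hand.

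Deadenylases shorten the poly(A) tail of messenger RNAs, which slows translation and opens the transcript to decapping and decay from its 5′ end. Each CCR4-NOT complex holds 1 nuclease of each of a pair of families on the CNOT1 scaffold. The Caf1-type nuclease is encoded by Cnot7 or by its close paralog Cnot8, and the Ccr4-type nuclease by Cnot6 or by Cnot6l, so paralogs can take each other's place in the complex. Tob and Btg adaptor proteins bind the Caf1-type subunit and thereby bring the complex to selected transcripts. Lowering Cnot7 therefore raises the question of whether transcripts of the remaining 3 nucleases change with it.

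The hairpins are the agents that separate the knockdown groups, and their mature antisense strands, taken from the study's supplementary tables, are shown 5′ to 3′ with the seed (bases 2 to 8) in capitals.
sh74: tAAGTACTgcagaatagaagg
sh75: aACAAGTCtacattacaccgc
Both strands were 21 bases long and held 8 (sh74) and 9 (sh75) G or C bases. They were identical at 2 of 21 positions and had different seeds. Of 1738 mature mouse miRNAs in RefSeq, 0 shared the seed of either strand.

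All values are RMA log2 intensities, with array medians from 6.31 to 6.38 over the 21789 probe sets tested. The 90th percentile of 1035 olfactory receptor probe sets, 4.89, marked the limit of dim signal, and all 4 members lay well above it in every sample. All 7 mammary epithelial markers, including Krt8 and Krt18, exceeded that limit in all 14 samples. Of 4 measured immune markers, Ptprc, Itgam and Adgre1 lay below it in all samples, whereas Cd3e exceeded it in all, at a mean of 5.88. Of 4 fibroblast markers, Col1a1, Col3a1 and Thy1 exceeded the limit in all samples, at means of 6.73, 6.47 and 6.07, and Dcn lay below it in all. Of 5 mesenchymal markers, 3 exceeded it in all samples and Cdh2 lay below it in all, and of 3 endothelial markers 1 exceeded it in all. Within their groups the 14 samples differed widely in a score of epithelial state, the mean of Epcam, Esrp1, Cldn7 and Cdh1 minus Vim. Of the epithelial markers outside the score, Krt8 ranged from 11.13 to 11.87 and Krt18 from 11.73 to 12.30, whereas Krt19 ranged from 8.87 to 11.07. Of the mesenchymal markers outside it, Cdh2 (4.02 to 4.22), Zeb1 (5.24 to 5.57) and Pdgfrb (4.86 to 5.13) varied little, whereas Pdgfra ranged from 6.83 to 9.25. The score of epithelial genes minus Vim averaged -3.15 ± 2.65 in over-expressing and -2.66 ± 0.93 in vector control cells. It averaged -2.76 ± 4.79 with sh74 and -3.82 ± 2.09 with sh75, against -2.09 ± 2.85 with shScramble (SD), and its part in the values of the members was examined only as a covariate.

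Cnot7 was the member that responded to the hairpins. Its transcript fell with sh75 to 20.4% of the shScramble level (95% interval 13.8 to 30.2%) and lay at 40.4% with sh74 (26.1 to 62.6%), where the change did not pass the test. Changes were tested with limma, a linear model that borrows information on the spread across probe sets, and those with an adjusted p under 0.05 over all tested probe sets are referred to as called. With the CNOT7 construct 0 of the 4 members were called. The sh74 samples had log2 values of 8.71 and 9.33 and the sh75 samples 7.52, 8.51 and 8.07, against 10.44, 10.33 and 10.20 in the shScramble samples. All 5 hairpin samples therefore lay below all 3 controls, which held for 1.85% of all probe sets. The sh74 samples also lay above all sh75 samples, as did 11.6% of all probe sets. The over-expressing samples had 10.64, 10.02 and 10.08, against 10.07, 10.52 and 10.15 in the vector control samples. In both of these groups 1 sample lay apart above the other two, and the groups overlapped. Against its vector control 0 of the 4 members were free of overlap, where 7.72% of all probe sets were.

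**Figure D1:**
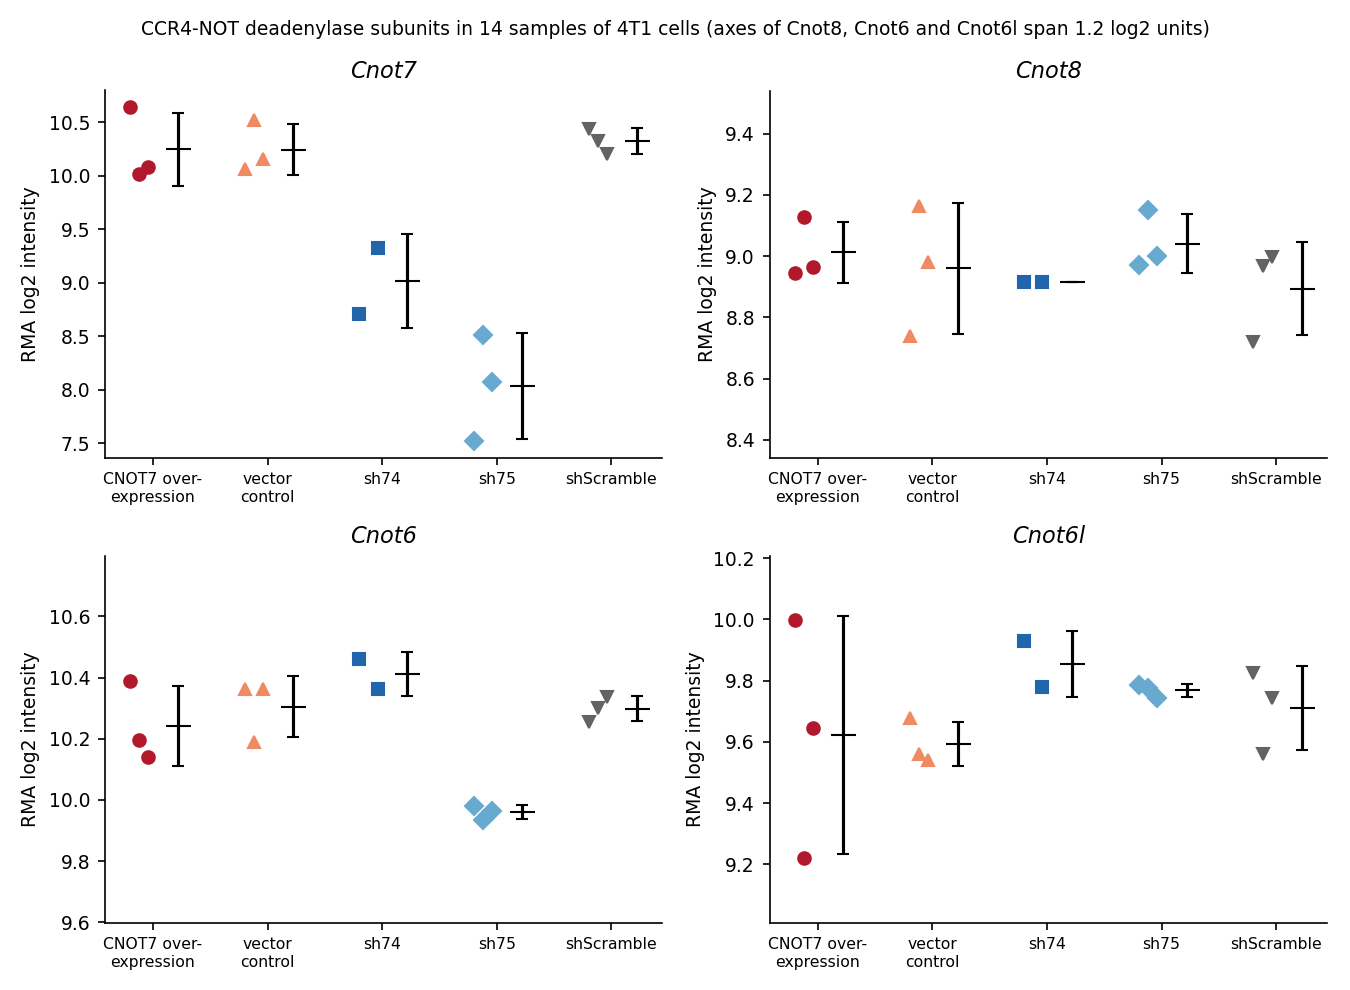
RMA log2 intensity of each deadenylase subunit in the 14 samples, by group; each symbol is a sample, and the black bars give mean and SD. The hairpin samples separate from the other groups for Cnot7, the 3 sh75 samples lie below all others for Cnot6, and all groups overlap their controls for Cnot8 and Cnot6l.

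Group means of Cnot7 were 10.25 ± 0.34 in over-expressing and 10.25 ± 0.24 in vector control cells (SD, n = 3 each). They were 9.02 ± 0.44 with sh74 (n = 2) and 8.03 ± 0.50 with sh75 (n = 3), against 10.32 ± 0.12 with shScramble (n = 3). In order of level, shScramble, over-expressing and vector control cells came first with overlapping samples, followed by sh74 and then by sh75, each without overlap with the group above. The limma estimate with sh75 was -2.29 (SE 0.26, adjusted p = 0.00911), the fifth largest fall among all tested probe sets. Only 0.0918% of probe sets were called in that comparison, and Cnot7 was the 1 member among them. The change with sh74 was -1.31 (SE 0.29, unadjusted p = 7.99e-04, adjusted p = 0.279, limma), the 25th largest fall, in a comparison that called 0.00918% of probe sets and 0 of the 4 members. Averaged over both hairpins, Cnot7 changed by -1.80 (SE 0.23, adjusted p = 0.04998, limma), where 0.0184% of probe sets were called, and a two-sided exact permutation test of the 5 hairpin samples against the 3 shScramble samples gave p = 0.0179, the smallest that 56 assignments allow. The limma call for this mean was lost in 11 of 19 other settings, among them the groups alone (adjusted p = 0.393), a random block of the title number (0.0510), the state score as covariate (0.0557) and 6 of 8 fits with a sample left out. Cnot7 was 0.98 higher in sh74 than in sh75 cells (SE 0.29, adjusted p = 0.279, limma), a comparison in which 0.174% of probe sets but 0 members were called. Fewer cells with the transcript and less transcript per cell cannot be told apart in bulk RNA.

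The change of Cnot7 with over-expression was 0.00 (SE 0.26, 95% interval -0.56 to 0.56). The interval leaves room for a change of the measured signal of up to about that size in either direction. It is not adjusted over probe sets, so it is no limit of what would have been called. With sh74 a Cnot7 change of -1.31 was not called (adjusted p = 0.279, limma). The interval does not bound the endogenous transcript alone, because the part of the construct in the signal is unknown. In limma 0% of all probe sets were called in this comparison, the methods' t-test (the per-gene test the study names) called 0, and 562 probe sets had an unadjusted p under 0.05 in limma. Vector control minus shScramble cells gave 0% called as well, with a Cnot7 difference of -0.08 (SE 0.26, adjusted p = 1.0, limma). The sh75 call was not kept in every setting. With sh75 and shScramble fitted alone the same change of -2.29 came with a limma adjusted p = 0.0999, and without shScramble replicate 1 or 2 it was -2.23 (adjusted p = 0.0546) or -2.29 (adjusted p = 0.0545). It was also lost with the title number as a replicate block (-2.24, adjusted p = 0.262, limma) and in the methods' t-test (adjusted p = 0.579).

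Cnot8, the paralog that can fill the position of Cnot7 in the complex, was at nearly the same level in every group. The sh74 samples had log2 values of 8.92 and 8.91 and the sh75 samples 8.97, 9.15 and 9.0, against 8.72, 8.97 and 9.0 in the shScramble samples. The over-expressing samples had 8.95, 9.13 and 8.96, against 8.74, 9.16 and 8.98 in the vector control samples. Each group overlapped its control, and the whole span over 14 samples was 0.44. Group means were 9.01 ± 0.10 with over-expression, 8.96 ± 0.21 in vector control, 8.92 ± 0.0013 with sh74, 9.04 ± 0.10 with sh75 and 8.89 ± 0.15 with shScramble (SD). In order of level, sh75, over-expressing, vector control, sh74 and shScramble cells followed each other, and the samples of every group overlapped those of the next.

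No change of Cnot8 was called, and the intervals bound the rise that could have gone unseen. The change was 0.15 with sh75 (SE 0.11, adjusted p = 0.788) and 0.02 with sh74 (SE 0.12, adjusted p = 0.988) in limma. The 95% intervals ran from -0.10 to 0.39 with sh75 and from -0.25 to 0.29 with sh74. Their upper ends correspond to 131% of the shScramble signal with sh75 and 122% with sh74. Over the mean of both hairpins the interval was -0.13 to 0.30 around 0.08. With over-expression the change was 0.05 (SE 0.11, interval -0.19 to 0.29). The second Cnot8 probe set, whose group means lay between 6.83 and 6.99, changed by -0.01 with sh75, -0.12 with sh74 and 0.15 with over-expression, again with 0 calls. The 2 probe sets thus differed in the sign of the hairpin changes, and the intervals of all these changes included 0. The second probe set is tied to Cnot8 by its annotated symbol alone, and whether it reads the same locus was not tested.

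Cnot6l, one of the pair of Ccr4-type nucleases, also overlapped between each group and its control. The sh74 samples had 9.93 and 9.78 and the sh75 samples 9.78, 9.78 and 9.74, against 9.83, 9.56 and 9.74 in the shScramble samples. The over-expressing samples had 10.00, 9.22 and 9.65, against 9.68, 9.56 and 9.54 in the vector control samples. Over-expression replicate 1 was the highest and replicate 2 the lowest of all 14 samples, so this group alone covered the whole span of 0.78. Group means were 9.62 ± 0.39 with over-expression, 9.59 ± 0.07 in vector control, 9.85 ± 0.11 with sh74, 9.77 ± 0.02 with sh75 and 9.71 ± 0.14 with shScramble (SD). Cnot6l changed by 0.06 with sh75 (SE 0.15, interval -0.28 to 0.39), by 0.14 with sh74 (SE 0.17, interval -0.23 to 0.52) and by 0.03 with over-expression (SE 0.15, interval -0.31 to 0.36). In order of level, sh74, sh75, shScramble, over-expressing and vector control cells each overlapped the next. The upper bounds of the hairpin changes allow up to 131% of the shScramble level with sh75 and 143% with sh74.

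Cnot6, the other Ccr4-type nuclease, was the only partner whose hairpin samples left the range of their controls, with sh74 above it and sh75 below it. The sh74 samples had 10.46 and 10.36 and the sh75 samples 9.98, 9.94 and 9.97, against 10.25, 10.30 and 10.34 in the shScramble samples. The 3 sh75 samples were the 3 lowest of the series, and both sh74 samples lay above all shScramble samples. The lower sh74 sample was still within the range of the over-expressing and vector control samples. The over-expressing samples had 10.39, 10.20 and 10.14, against 10.36, 10.19 and 10.36 in the vector control samples, with overlap. Group means were 10.24 ± 0.13 with over-expression, 10.30 ± 0.10 in vector control, 10.41 ± 0.07 with sh74, 9.96 ± 0.02 with sh75 and 10.30 ± 0.04 with shScramble (SD). In order of level, sh74, vector control, shScramble and over-expressing cells each overlapped the next, and sh75 cells lay below all of them.

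The change of Cnot6 with sh75 was -0.34 (SE 0.07, 95% interval -0.50 to -0.18), or 79.2% of the shScramble level. Its unadjusted p was 7.29e-04 and its adjusted p = 0.193 in limma, so it was not called. With sh74 the change was 0.11 (SE 0.08, interval -0.07 to 0.29, adjusted p = 0.841, limma). Groups without overlap were common in so few arrays. They made up 6.76% of all probe sets in the direction lower with sh75, and 11.4% in the direction higher with sh74. Between the hairpins Cnot6 was 0.45 higher in sh74 than in sh75 cells (SE 0.08, interval 0.27 to 0.63, unadjusted p = 1.73e-04, adjusted p = 0.0667, limma), whereas 8.93% of all probe sets reached an unadjusted p under 0.05 there. With over-expression Cnot6 changed by -0.06 (SE 0.07, interval -0.22 to 0.10). Among the 4 members 2 (Cnot7 and Cnot6) lay outside the shScramble range with sh75, where 13.5% of all probe sets did so. The same 2 lay outside it with sh74, where 22% of all probe sets did.

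**Figure D2:**
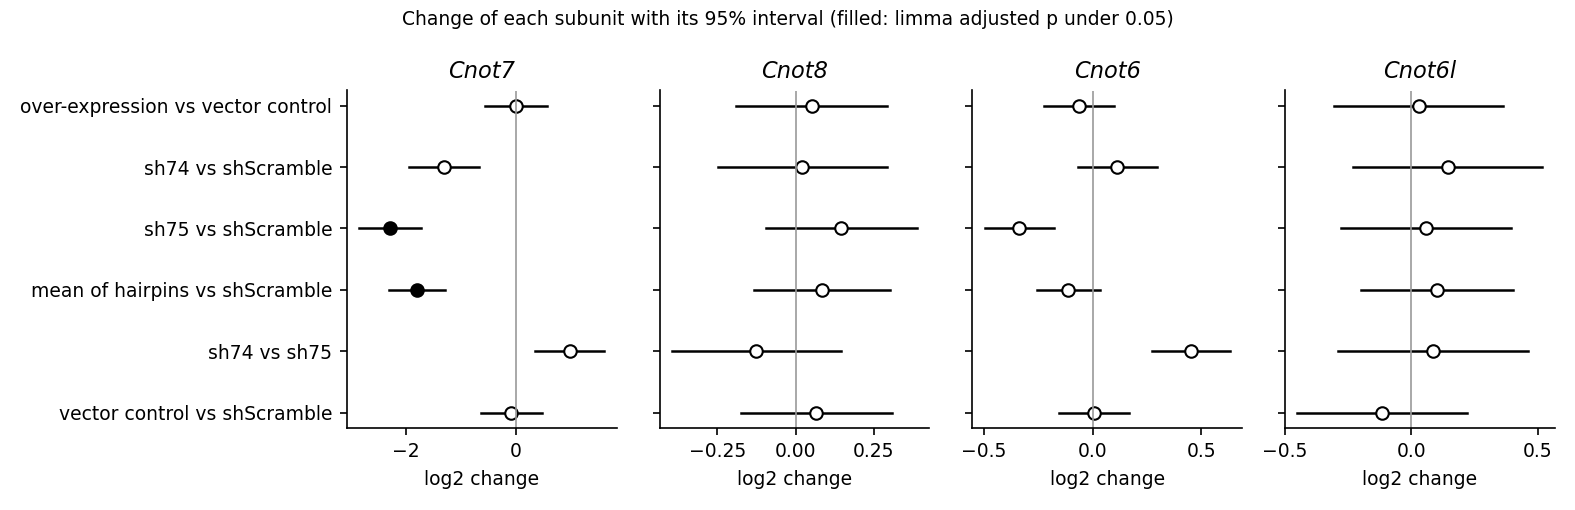
Log2 change of each subunit in 6 comparisons with its 95% interval from limma; the scale of the horizontal axis differs between panels, and filled symbols mark an adjusted p under 0.05. Only Cnot7 has filled symbols, with sh75 (-2.29) and for the mean of both hairpins (-1.80), while the intervals of Cnot8 and Cnot6l include 0 in all comparisons.

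Between the 2 control groups 0 members were called. The difference of vector control minus shScramble cells was 0.07 for Cnot8, 0.01 for Cnot6 and -0.12 for Cnot6l, and all 3 intervals included 0. The spread inside groups differed more between the members. The pooled within-group SD was 0.34 for Cnot7, 0.20 for Cnot6l, 0.14 for Cnot8 and 0.08 for Cnot6, against a median of 0.16 over 16101 probe sets above the dim limit. Cnot7 thus varied more between samples of a group than 88.5% of them, and Cnot6 more than 15.3%. The pooled value of Cnot7 includes the groups in which it was targeted, with SDs of 0.44 (sh74) and 0.50 (sh75). Its SD was 0.34 in over-expressing, 0.24 in vector control and 0.12 in shScramble cells.

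Whether the partners ran with or against Cnot7 where it was not targeted was asked over the 9 samples without a Cnot7 hairpin. Cnot8 had r = 0.00 and rho = -0.10 (exact permutation p = 0.991 for r), and Cnot6 had r = 0.21 and rho = 0.20 (exact permutation p = 0.584). Cnot6l had r = 0.63 and rho = 0.55 (exact permutation p = 0.0641 for r and 0.133 for rho, 0.192 and 0.398 after adjustment over the 3 relations). With over-expression replicate 1 and vector control replicate 2 left out, the samples farthest from the median of Cnot7, r was -0.47 for Cnot8, 0.18 for Cnot6 and 0.59 for Cnot6l (exact permutation p = 0.166). None of the 3 relations passed the threshold. After group means were subtracted, r for Cnot6l was 0.62. The 5 hairpin samples were too few for a correlation of their own.

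Genes whose pattern over all 14 samples was most like that of a member were ranked by Pearson correlation among 13664 genes above the dim limit, as a description without a test. For Cnot7 these were Hipk3, a homeodomain-interacting kinase (r = 0.92), Morf4l2 (0.92), the inositol polyphosphate phosphatase gene Inpp4b (0.90), the COP9 signalosome subunit gene Cops7b (0.89) and the ubiquitin ligase gene Rnf6 (0.89). The genes running most against it were Cth, which encodes cystathionine gamma-lyase (r = -0.91), Nfia (-0.89), Plce1 (-0.89), Farp1 (-0.89) and Zbtb22 (-0.88). For Cnot6 the most alike were Tmem170b (r = 0.97), Arl15 (0.93), Rbm41 (0.92), Bicd2 (0.91) and Yipf6 (0.90). Arl15 and Tmem170b shared the low sh75 samples of Cnot6, with group means of 6.13 and 6.78 in sh75 cells against 7.63 and 8.20 in shScramble cells. For Cnot8 the highest were Lztr1 (0.91), Kdm5b (0.89), Llgl1 (0.87), Hdhd3 (0.87) and Rdm1 (0.86), and for Cnot6l Pcgf3 (0.91), Mthfd2l (0.85), Mapk8ip3 (0.83), Ecpas (0.82) and Ctnnal1 (0.82). Between members, r over 14 samples was 0.60 for Cnot7 and Cnot6, both low in the sh75 samples, and lay between -0.45 and 0.13 for the other pairs.

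Over the 9 samples without a Cnot7 hairpin, the genes most like Cnot7 shared its chromosome. The 5 highest were D8Ertd738e (r = 0.99), Gins4 (0.98), Gas8 (0.97), Cfap20 (0.97) and Tcf25 (0.97), all on chromosome 8, as is Cnot7. This feature was followed up after the values had been seen and is given as a description. Of the 100 genes most like Cnot7, 83 lay on chromosome 8, which holds 5.38% of the 14697 genes ranked. The median r was 0.64 for genes of that chromosome and -0.04 for all others. For Cnot6l 44 of the 100 most alike genes lay on its chromosome 5, which holds 6.31% of the ranked genes. Cnot8 and Cnot6, both on chromosome 11 with 8.95% of the ranked genes, had 11 and 4 of 100 there. The 5 genes most like Cnot6 over all 14 samples lay on other chromosomes, Tmem170b, Arl15 and Bicd2 on chromosome 13 and Rbm41 and Yipf6 on X.

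The level of chromosome 8, taken per sample as the median deviation of its other genes from their 14-sample means, separated samples within groups. It was 0.25, -0.07 and -0.05 in the over-expressing samples, against -0.07, 0.15 and -0.06 in the vector control samples. It was -0.08 and 0.14 in the sh74 samples and -0.07, -0.06 and -0.04 in the sh75 samples, against 0.08, 0.05 and -0.07 in the shScramble samples. Within the over-expressing, vector control, sh74 and shScramble groups, the sample with the highest chromosome 8 level was also the one with the highest Cnot7, which was not so among the sh75 samples. The range of 0.33 was the third widest among 20 chromosomes, after 0.38 on both chromosome 13 and chromosome 3. On chromosome 5 over-expression replicates 1 and 2 had the highest and the lowest level, 0.08 and -0.15, as they did for Cnot6l, with 0.02 in replicate 3 and values between -0.02 and 0.04 in all other samples.

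**Figure D3:**
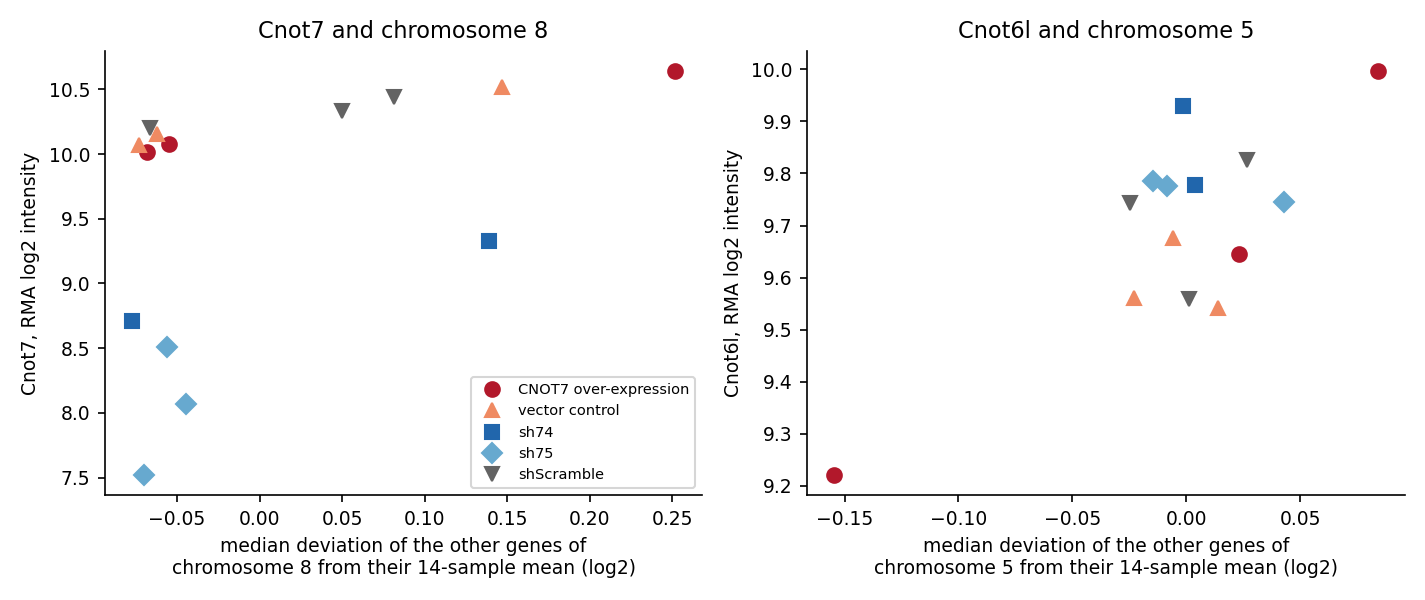
Log2 value of Cnot7 against the level of chromosome 8 (left) and of Cnot6l against the level of chromosome 5 (right), each the median deviation of the other genes of that chromosome from their 14-sample means; symbols are samples. Among samples without a Cnot7 hairpin the highest Cnot7 value goes with the highest chromosome 8 level (0.25), and over-expression replicate 2 stands apart at -0.15 on chromosome 5.

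With the level of each gene's chromosome as a covariate in limma, the fall of Cnot7 was -2.13 with sh75 (SE 0.19, adjusted p = 0.00333) and -1.33 with sh74 (SE 0.21, adjusted p = 0.108). The mean over both hairpins was -1.73 (SE 0.17, adjusted p = 0.0212), and the change with over-expression was -0.08 (SE 0.19). The standard errors were smaller than without the covariate, at 0.26, 0.29, 0.23 and 0.26. The covariate was chosen because genes of chromosome 8 were seen to run with Cnot7 in these same samples. Smaller errors and p-values for Cnot7 therefore follow in part from that choice and are no separate support. For Cnot6l the change with over-expression was 0.06 (SE 0.09) in this fit. What makes these chromosomes differ between samples was not tested.

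The rest of the deadenylation machinery, 5 lists with 37 measured genes in all, had 0 genes called by limma in any of the 6 comparisons. At an unadjusted p under 0.05 stood 1 of the 37 with over-expression, 6 with sh74 and 6 with sh75, that is 2.7%, 16.2% and 16.2% of them, against 2.58%, 7.33% and 8.26% of all probe sets. These shares have unlike bases. All listed genes except Btg4 had a mean above the dim limit, as did 16101 of the 21789 probe sets. The lists were also chosen with earlier results of these data known. The listed CCR4-NOT genes without nuclease activity, among them the scaffold gene Cnot1, had 4 of 7 members higher with over-expression. With sh74 3 of 7 were higher, and with sh75 2 of 7. Their median changes were 0.00, -0.08 and -0.10 in that order, against 0.01, 0.00 and 0.00 over all tested probe sets. The member nearest to a call was Cnot9, a subunit that binds CNOT1 and serves as a docking site for regulatory proteins. It had 10.30 and 10.65 in the sh74 samples and 9.91, 9.93 and 9.85 in the sh75 samples, against 10.58, 10.51 and 10.58 in the shScramble samples. The sh75 samples lay 0.66 below shScramble (change -0.66, SE 0.11, adjusted p = 0.0620, limma) and below all other samples, like those of Cnot6. Against shScramble alone, 6.76% of all probe sets were lower with sh75 without overlap. Cnot11, which joins the complex through CNOT1, had -0.32 with sh75. With sh74 the scaffold-binding subunits Cnot2 and Cnot3 had 0.24 and -0.26, and with over-expression Cnot3 and the scaffold gene Cnot1 had 0.24 and 0.11.

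Of the Tob and Btg adaptors, which tie Caf1-type nucleases to target transcripts, 3 of 5 measured members were higher with over-expression, 2 of 5 with sh74 and 4 of 5 with sh75, and Btg3 was not analysed here. Tob2 had the smallest p with over-expression, with 0.32 (SE 0.07) and a non-overlap found in 4.3% of all probe sets in that direction. Tob1 lay at 8.79 and 9.32 in the sh74 samples, against 9.75, 9.81 and 9.33 in the shScramble samples, a change of -0.57 (SE 0.20, adjusted p = 0.557, limma). The groups did not overlap, but their nearest samples were almost equal. Btg2 had 0.49 (SE 0.14) and Tob2 0.19 with sh75. Btg1 had 0.13 with sh74, and Btg4, a germ-cell family member with a mean below the dim limit, 0.04 with over-expression. The median over the list was 0.03 with over-expression, -0.04 with sh74 and 0.19 with sh75.

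A further list held 9 genes of deadenylases outside CCR4-NOT and of their relatives or partners. Of these, 2 were higher and 7 lower with over-expression, 3 and 6 with sh74, and 2 and 7 with sh75. Their median changes were -0.05, -0.05 and -0.13 in that order, against 0.01, 0.00 and 0.00 over all tested probe sets. Pan2, the nuclease of the PAN2-PAN3 complex that trims long tails, had 0.36 with sh75 (SE 0.15) and -0.16 with over-expression. Parn, the poly(A)-specific ribonuclease, had -0.16 with over-expression. Angel2, a relative of the Ccr4-type nucleases, had 7.96 and 8.35 in the sh74 samples and 8.36, 8.74 and 8.30 in the sh75 samples, against 8.62, 8.69 and 8.92 in the shScramble samples. Its change was -0.59 with sh74 (SE 0.14, adjusted p = 0.326, limma) and -0.28 with sh75 (SE 0.13), so it lay lower with both hairpins without passing the test in either. Toe1, which trims the tails of small nuclear RNAs, had -0.27 with sh74.

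The genes that bind or extend poly(A) tails had 2 of 7 members higher with over-expression, 4 of 7 with sh74 and 2 of 7 with sh75, and Pabpc4 was not analysed here. Tent2, a cytoplasmic poly(A) polymerase, had 10.28 and 9.91 in the sh74 samples, against 9.63, 9.55 and 9.68 in the shScramble samples (change 0.47, SE 0.11, adjusted p = 0.294, limma). In sh75 it had 9.44, 9.60 and 9.65, inside or just below the shScramble range. The noncanonical polymerase Tent4a had 0.32 with sh74, whereas Tent4b had -0.40 and the nuclear polymerase Papolg 0.26 with sh75. Pabpc1, the main cytoplasmic poly(A)-binding protein, had -0.05 and Tent2 -0.09 with over-expression.

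The decapping and 5′ to 3′ decay factors that act after deadenylation had 6 of 9 members higher with over-expression, 5 with sh74 and 3 with sh75, at median changes of 0.03, 0.07 and -0.03. The decapping enzyme gene Dcp2 had 0.33 (SE 0.18) and the helicase gene Ddx6 0.11 with over-expression. With sh74 the decapping activator Dcp1a had -0.31 and the exonuclease Xrn1 0.49 (SE 0.26), and with sh75 the decapping cofactors Edc3 and Lsm1 had -0.19 and -0.35. Dcp1a was the 1 gene of this list with an unadjusted p under 0.05 with sh74 (SE 0.12), and the adjusted p was 0.639 or higher for each gene named from it (limma).

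**Figure D4:**
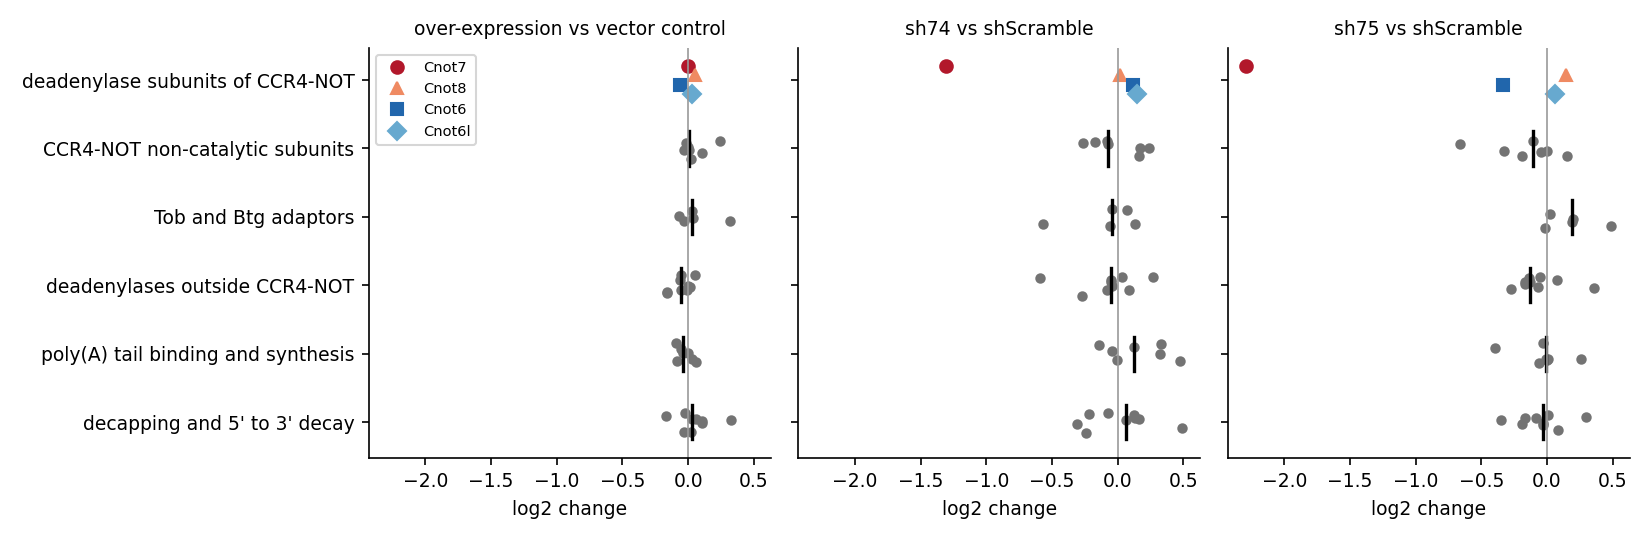
Log2 change of the 4 deadenylase subunits (coloured symbols) and of each measured gene of 5 related lists (gray) in 3 comparisons, with the median of each list as a black bar. Cnot7 stands far to the left of all other genes with sh74 (-1.31) and sh75 (-2.29) and among them with over-expression (0.00).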

How the data were processed

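Expression was measured in 14 samples of 4T1 cells on single-color Affymetrix mouse gene arrays. The authors deposited log2 values from RMA, run with the package oligo (versions not given in the sources used here), and these were used as they stand. RMA equalizes the distributions of arrays, so a shift of all transcripts would not be seen. Of 35556 probe sets, 21789 paired with 1 gene symbol and were tested, 1621 paired with several and 12146 with none. The build of the array annotation is not given in the sources used here, so no coordinates are printed. Chromosomes and names came from a RefSeq table (GRCm38.p6), in which Entrez identifiers of 21698 tested probe sets matched.

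A single limma fit (3.58.1, R 4.3.3, lmFit and eBayes, two-sided) covered all 14 samples in 5 groups, with 9 residual and 2.09 prior degrees of freedom. P-values were adjusted by Benjamini-Hochberg over the 21789 probe sets within each of 6 comparisons, and an adjusted p under 0.05 was a call. The methods' t-test was the pooled-variance test in R. The script was tested on simulated data. The comparisons of each hairpin and of their mean share the shScramble samples. Precision was limited by 2 or 3 arrays per group. The state score was the mean of Epcam, Esrp1, Cldn7 and Cdh1 minus Vim.

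All 4 members were named. Of each related list, genes called by limma and otherwise the 2 with the smallest p in each of 3 comparisons were named, and for likeness the 5 highest correlations, for Cnot7 also the 5 lowest. The members and lists were chosen with earlier results of these data known. Alternatives were the groups compared alone, centering or quantile normalization, leaving out dim probe sets, all probe sets, trend and robust eBayes, array weights, blocks of the title number, the state score or the chromosome level as covariate, the methods' t-test, the second Cnot8 probe set and leaving out each sample. The chromosome covariate was added after the data had been seen. Columns of other samples were not used, and no deposited comparison columns were used.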

Additional observations from a re-analysis of the deposited data

Results flagged for a closer look

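Cnot6 was picked out among the 4 members and the 37 genes of the related lists by a rule on these same values. The rule asked for all samples of 1 hairpin above, and all samples of the other below, every shScramble sample. The change of Cnot6 relative to shScramble was 0.11 with sh74 and -0.34 with sh75, with all sh74 samples above and all sh75 samples below every shScramble sample. The share of all probe sets with this pattern was not obtained. The test of the difference itself gave 0.45 (SE 0.08, unadjusted p = 1.73e-04, adjusted p = 0.0667, limma), which did not pass the threshold after adjustment over all probe sets. Because the rule already selects a gap between the hairpins, this test is no separate support for it. With samples left out the difference ranged from 0.40 to 0.50.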

How the results depend on the processing

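Over 24 results (each of the 4 members in 6 comparisons), 418 values under other settings were obtained, of which 380 kept their direction and their side of the threshold, 16 kept the direction but lost the call and 22 changed sign. None of the sign changes concerned a called result. The fall of Cnot7 with sh75 was -2.29 (adjusted p = 0.0999) with its groups alone and -2.29 (adjusted p = 0.579) in the methods' t-test, and ranged from -2.53 to -2.03 with samples left out (adjusted p 0.00933 to 0.0546, above the threshold without shScramble replicate 1 or 2). For the mean of both hairpins it was -1.80 with the groups alone (adjusted p = 0.393), -1.80 with all probe sets (0.0891), -1.79 with a random block of the title number (0.0510), -1.75 with the state score (0.0557) and -1.90 in the methods' t-test (0.886). With samples left out it ranged from -1.95 to -1.64 (adjusted p 0.0169 to 0.374), and 6 of 8 fits lost the call. A lone sh74 sample was assumed to vary like the other groups.

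Whether the title numbers pair the samples was not settled, because the labels do not give their meaning. Over 13 pairs of samples with the same number, deviations from group means correlated at -0.32 to 0.61 (median 0.09, 6 pairs over 0.1), and over 65 other pairs the median was -0.10. Deviations cancel within each small group, which ties these correlations to each other, so they cannot decide the question. A fixed replicate block could be estimated only for sh75 against shScramble, where Cnot7 changed by -2.24 (adjusted p = 0.262, limma, 5 residual degrees of freedom) and 2 probe sets were called in place of 20. Within number 4 the difference was -2.81 (1 sample each), and within number 5 it was -1.91 (2 sh75 samples and 1 shScramble sample).

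Values near 0 changed sign. Cnot7 with over-expression was -0.0013 after median centering, -0.021 after quantile normalization and -0.081 with the chromosome level, and -0.20 to 0.14 with samples left out. With samples left out, over-expression gave -0.060 to 0.15 for Cnot8 and -0.16 to 0.23 for Cnot6l. Likewise vector control minus shScramble gave -0.21 to 0.011 for Cnot7, -0.022 to 0.064 for Cnot6 and -0.035 to 0.18 for Cnot8. Hairpin changes of Cnot8 were -0.066 to 0.072 with sh74 and -0.0035 to 0.13 for the mean, and those of Cnot6l with sh75 -0.017 to 0.12. The second Cnot8 probe set gave -0.12 with sh74, -0.0076 with sh75, -0.064 for the mean and -0.16 for vector control minus shScramble, and the correlation of Cnot8 with Cnot7 was -0.47 without the 2 farthest samples. The cause was not tested.

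Counts of called probe sets moved widely: 0 to 122 with sh74 (2 in the report, 122 without sh74 replicate 2), 0 to 35 with sh75 (20), 0 to 89 for the mean (4, 89 without sh74 replicate 2), 0 to 62 between hairpins (38), and 0 to 1 for over-expression and for vector control minus shScramble (0 each).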
